A study of Mus musculus with 6 samples.

Results

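The MHC class II pathway was described in LSK cells of mouse bone marrow by 10 genes: Cd74, H2-Aa, H2-Ab1, H2-Eb1, H2-DMa, H2-DMb1, H2-DMb2, H2-Oa, H2-Ob and Ciita. They were taken by symbol from a table of 55487 genes, each symbol matched 1 row, and all 10 passed the filter on low counts that left 15257 genes for testing. LSK cells carry Sca-1 and Kit without lineage markers and include the blood-forming stem cells. The groups were 3 libraries of wild-type littermates and 3 of Mc5r-/- mice, which lack the melanocortin 5 receptor and are called Mc5r-null here. The series describes the mice of both genotypes as irradiated. The dose, the time after irradiation, the strain, sex and age, the deleted part of Mc5r, the cells the deletion reaches and the number of mice behind a library are not given in the sources used here, so p-values reflect only how these libraries vary, and part of that variation may be technical. The comparison made was Mc5r-null against wild-type, and it asks which transcripts differ in irradiated stem and progenitor cells without the receptor.

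MHC class II molecules present peptides from endosomes to CD4 T cells. Their alpha and beta chains pair in the endoplasmic reticulum on the invariant chain, encoded by Cd74, which blocks the groove and guides the complex to endosomes. Proteases cut the invariant chain down to a fragment called CLIP, DM molecules remove CLIP and load peptide, and DO molecules hold DM back. CIITA, which binds no DNA itself, is recruited to the X and Y boxes of class II promoters and switches the genes of the pathway on together. Class II is best known from B cells, dendritic cells and macrophages, and it is also found at a low level on haematopoietic stem and progenitor cells. The CD74 protein has a further role as a surface receptor of the cytokine MIF.

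Cd74 was higher in Mc5r-null LSK cells, and the genes of the classical class II chains that its product binds did not pass the test. Cd74 rose 1.85-fold. H2-Oa, one of the DO chain genes, rose 1.34-fold, a call lost in 6 of 14 alternative analyses, and its partner H2-Ob lay just past the threshold with a fitted 1.49-fold difference. H2-Aa, H2-Ab1, H2-Eb1, the DM chain genes and Ciita did not pass. In all, 2 of the 10 genes were higher and 0 were lower when genes were called by edgeR's quasi-likelihood test with Benjamini-Hochberg adjustment over all genes tested (threshold 0.05). Of all genes tested, 32.9% were called in either direction and 16.8% were called higher, so the count of 2 in 10 lay near the background. Leaving out 1 library moved that count between 1 and 3, and it was 1 (Cd74) when the third wild-type library, or the second or the third Mc5r-null library, was left out. The median log2 fold change of the 10 genes was 0.20, against -0.00 over all genes tested.

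**Figure D1:**
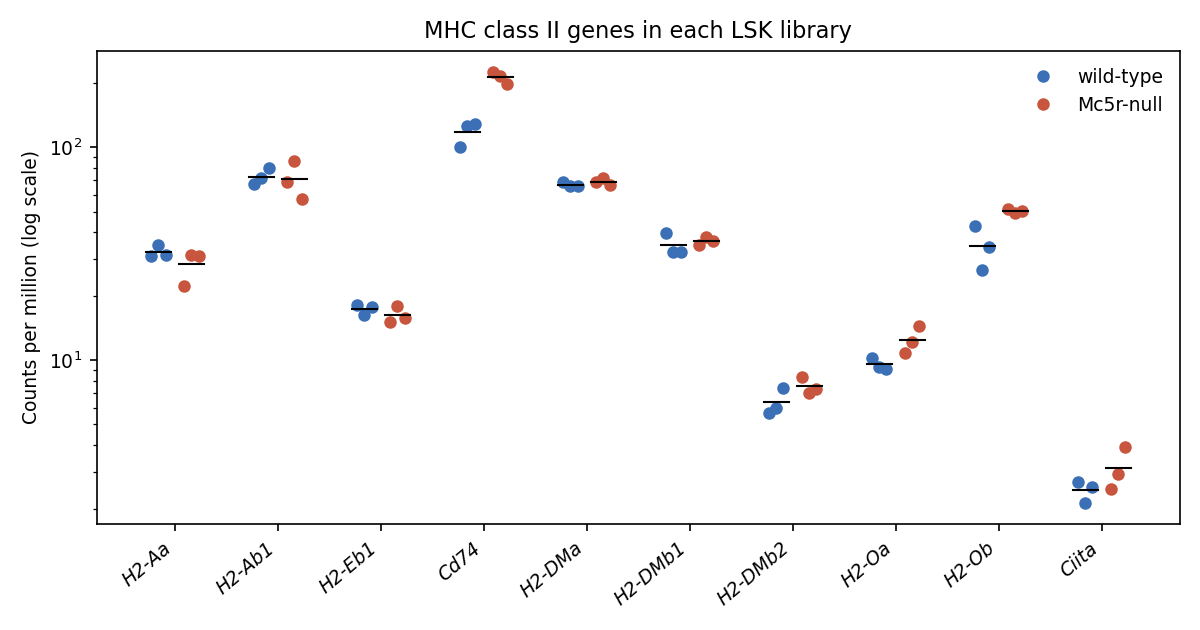
Level in CPM (log axis) of the 10 class II genes in each library, with 3 wild-type and 3 Mc5r-null points per gene and a bar at each mean. The Mc5r-null points of Cd74, H2-Oa and H2-Ob lie above all wild-type points, and the points of the other 7 genes overlap between genotypes.

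The libraries were of like depth, between 13983016 and 14953169 counts. Mc5r had 181, 157 and 198 counts in the wild-type libraries and 0, 0 and 1 in the Mc5r-null libraries, which fits the labels. Levels are given in CPM, a gene's count per 1000000 counts of its library. The LSK markers Kit (240.9 ± 2.95 and 256.2 ± 5.21 CPM), Ly6a, which encodes Sca-1 (59.3 ± 10.6 and 66.6 ± 9.54 CPM), and Cd34 were present in every library (wild-type and Mc5r-null means, SD, n = 3 each).

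Compared per length in the deposited FPKM values, Cd74 was the most abundant of the 10 transcripts in wild-type cells and Ciita the scarcest. Cd74 stood at 39.2 ± 5.16 FPKM (SD, n = 3, as for all FPKM values here). H2-DMb1 (15.9 ± 1.96), H2-Ab1 (13.5 ± 1.21), H2-DMa (9.59 ± 0.245), H2-Aa (6.86 ± 0.479) and H2-Eb1 (4.99 ± 0.285) followed. H2-Ob (3.72 ± 0.874), H2-Oa (2.71 ± 0.168) and H2-DMb2 (2.20 ± 0.316) were lower, and Ciita was at 0.193 ± 0.0218 FPKM. Among neighbours in this order, the wild-type libraries of H2-DMb1 and H2-Ab1 overlapped, as did those of H2-Ob and H2-Oa. In Mc5r-null cells the order was the same except that H2-Ob (5.43 ± 0.100) stood above H2-Eb1 (4.67 ± 0.427), and Cd74 reached 70.8 ± 4.48 FPKM. The gene lengths implied by the FPKM values were longer than the coding transcripts, at 3027 bases for Cd74 and 9281 for H2-Ob, whose longest coding GENCODE transcripts have 1410 and 2670 bases. Per kilobase of the longest coding transcript, the ranks of 6 of the 10 genes differed, with H2-Ab1 second (60.2 ± 5.38 CPM per kilobase), H2-DMa the third and H2-DMb1 the fifth, while Cd74 remained first (84.1 ± 11.1) and Ciita last.

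The invariant chain gene showed the clearest difference. Cd74 (ENSMUSG00000024610, GRCm38 chromosome 18, positions 60803848 to 60812652, plus strand) had 1505, 1874 and 1929 counts in wild-type replicates 1, 2 and 3, or 100.6, 125.5 and 129.4 CPM. The Mc5r-null replicates had 3170, 3066 and 2785 counts, or 225.6, 217.8 and 199.2 CPM. The lowest Mc5r-null library stood well above the highest wild-type library, and the low wild-type value was that of replicate 1. The fitted log2 fold change was 0.89 ± 0.11 (SE; 95% interval 0.60 to 1.18; edgeR adjusted p = 0.00385). Cd74 passed in each of the 14 alternative analyses, with a log2 fold change from 0.78, without wild-type replicate 1, to 0.95, without wild-type replicate 3.

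The classical chains form the I-A molecule (H2-Aa, alpha, and H2-Ab1, beta) and the beta chain of I-E (H2-Eb1). H2-Aa stood at 30.8, 34.9 and 31.3 CPM in the wild-type replicates and at 22.4, 31.3 and 30.9 CPM without Mc5r (log2 fold change -0.16 ± 0.13 SE, 95% interval -0.48 to 0.16, edgeR adjusted p = 0.407). Its groups overlapped, with Mc5r-null replicate 1 the lowest library. H2-Ab1 stood at 67.1, 71.6 and 80.0 CPM in the wild-type replicates and at 69.2, 86.6 and 57.1 CPM without Mc5r (log2 fold change -0.00 ± 0.17 SE, 95% interval -0.45 to 0.45, edgeR adjusted p = 0.988). Both the highest and the lowest of its 6 values were Mc5r-null, in replicates 2 and 3, and its interval was the widest of the chain genes. H2-Eb1 stood at 18.3, 16.3 and 17.8 CPM in the wild-type replicates and at 15.1, 17.97 and 15.9 CPM without Mc5r (log2 fold change -0.06 ± 0.09 SE, 95% interval -0.27 to 0.14, edgeR adjusted p = 0.635). The upper ends of these 3 intervals all lie below the lower end of the Cd74 interval.

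Within each library, Cd74 was therefore set against the chain genes. The ratio rests on the same counts as the fits above and is no separate support for them. The Cd74 count divided by the summed counts of H2-Aa, H2-Ab1 and H2-Eb1 was 0.866, 1.02 and 1.003 in the wild-type libraries and 2.11, 1.60 and 1.92 in the Mc5r-null libraries. The groups did not overlap, and the ratio averaged 0.964 ± 0.0848 (SD, n = 3) in wild-type cells and 1.88 ± 0.258 (SD, n = 3) without Mc5r. The summed level of the 3 chain genes was 122.7 ± 6.43 CPM in wild-type cells against 115.5 ± 17.7 CPM without Mc5r, with overlapping groups.

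The DM chain genes, whose products load peptide, did not pass. H2-DMa, the alpha chain gene, stood at 68.5, 65.6 and 65.6 CPM in the wild-type replicates and at 68.9, 71.7 and 66.9 CPM without Mc5r (log2 fold change 0.09 ± 0.04 SE, 95% interval -0.01 to 0.19, edgeR adjusted p = 0.151). Its SE was the smallest of the 10 genes. H2-DMb1, a beta chain gene, stood at 39.7, 32.4 and 32.1 CPM in the wild-type replicates and at 34.7, 38.1 and 36.5 CPM without Mc5r (log2 fold change 0.10 ± 0.09 SE, 95% interval -0.10 to 0.31, edgeR adjusted p = 0.417). H2-DMb2, the second beta chain gene, stood at 5.68, 5.96 and 7.38 CPM in the wild-type replicates and at 8.32, 7.03 and 7.37 CPM without Mc5r (log2 fold change 0.29 ± 0.13 SE, 95% interval -0.01 to 0.59, edgeR adjusted p = 0.130). The groups of each DM gene overlapped. The longest coding transcripts of H2-DMb1 and H2-DMb2 were identical at 94.1% of 1219 aligned bases and shared an exact stretch of 221 bases, so the split of reads between them is uncertain. H2-DMa overlaps Brd2 on the opposite strand, and the sources used here do not say whether strand was used in counting.

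The DO chain genes, whose products restrain DM, were higher or close to the threshold. H2-Oa had 153, 139 and 136 counts in wild-type and 152, 171 and 203 in Mc5r-null, or 10.2, 9.31 and 9.13 CPM against 10.8, 12.1 and 14.5 CPM. The groups did not overlap but came close, and replicate 1 was both the lowest Mc5r-null and the highest wild-type library. The log2 fold change was 0.42 ± 0.12 (SE; 95% interval 0.14 to 0.70; edgeR adjusted p = 0.0290). The call was lost with DESeq2 (adjusted p = 0.0831), with the replicate number as a block (edgeR adjusted p = 0.0627), and when replicate 2 or 3 of either genotype was left out (edgeR adjusted p from 0.0579 to 0.0845). H2-Ob stood at 42.9, 26.7 and 34.0 CPM in the wild-type replicates and at 51.3, 49.4 and 50.4 CPM without Mc5r. The Mc5r-null libraries lay close together above a scattered wild-type group, in which replicate 2 was the lowest. The log2 fold change of H2-Ob was 0.58 ± 0.17 (SE; 95% interval 0.15 to 1.01; edgeR adjusted p = 0.0522). H2-Ob passed with DESeq2 (adjusted p = 0.00496), limma-voom (0.0203), the replicate block (0.0386) and the filter of 1 CPM (0.0491), and without wild-type replicate 1 (0.00190) or 2 (0.0186). The DO counts divided by the DM counts were 0.466, 0.346 and 0.411 in wild-type and 0.555, 0.527 and 0.586 in Mc5r-null. The groups did not overlap, but this ratio rests on the same counts as the fits above and is no separate support.

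Ciita, the master regulator gene, was barely expressed. It had 40, 32 and 38 counts in wild-type and 35, 41 and 55 in Mc5r-null, or 2.68, 2.14 and 2.55 CPM against 2.49, 2.91 and 3.93 CPM. The groups overlapped, and the highest value was that of Mc5r-null replicate 3 (log2 fold change 0.37 ± 0.20 SE, 95% interval -0.10 to 0.84, edgeR adjusted p = 0.201). The fitted difference of Cd74 lay just above this interval, but the 95% interval of Cd74, 0.60 to 1.18, overlapped that of Ciita. Part of Ciita overlaps Dexi on the opposite strand.

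**Figure D2:**
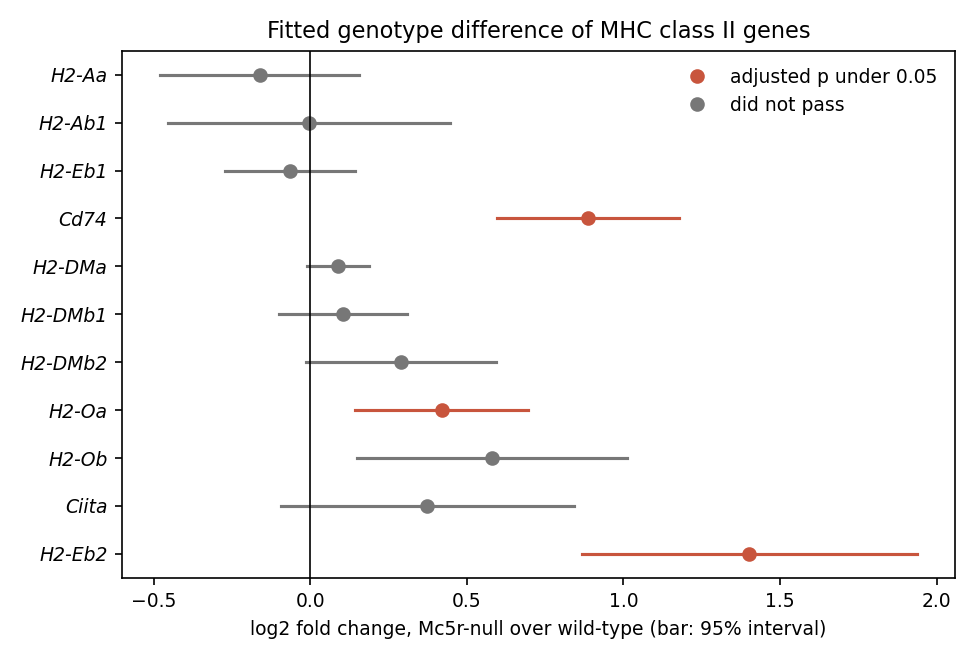
Fitted log2 fold change of Mc5r-null over wild-type for the 10 class II genes and for H2-Eb2, with 95% intervals from 3 libraries per genotype. Red marks an adjusted p under 0.05 and grey a gene that did not pass. The intervals of H2-Aa, H2-Ab1 and H2-Eb1 span 0, and those of Cd74 and H2-Eb2 lie wholly above 0.5.

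All Mc5r-null libraries stood above all wild-type libraries for 3 of the 10 genes, Cd74, H2-Oa and H2-Ob, and below them for 0. Over all genes tested, 21.0% had all Mc5r-null libraries above, and the matching share below is not reported here. Of the 10 fitted differences 7 were above 0, where the median over all genes tested was -0.00. The counts of 0 below and 7 above 0 are thus not read as a trait of these genes. Across the 6 libraries, the levels of the classical chain genes had Pearson correlations between 0.14 (H2-Aa with H2-Ab1) and 0.56 (H2-Aa with H2-Eb1), on log2 CPM. Cd74 had correlations of -0.54 with H2-Aa, 0.01 with H2-Ab1 and -0.55 with H2-Eb1, and the highest value of any pair was 0.91, for H2-Oa with Ciita. These are descriptions over 6 libraries of 2 genotypes that share their library totals.

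Beyond the 10 genes, the table held 2 more class II chain genes. H2-Eb2, a second E beta chain gene, was scarce, with 18, 15 and 17 counts in wild-type and 52, 36 and 34 in Mc5r-null. Every Mc5r-null library held more than any wild-type library, and H2-Eb2 rose 2.64-fold (log2 fold change 1.40 ± 0.23 SE, edgeR adjusted p = 0.00232), a call kept in each of the 14 alternatives. Its longest coding transcript was identical to that of H2-Eb1 at 66.9% of 1482 aligned bases. H2-Ea, the E alpha chain gene, which is inactive in some mouse strains and is annotated as a polymorphic pseudogene, had 1 count in wild-type replicate 2 and none in the other libraries.

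The genes lie together on the genome with few exceptions. Of the 10 genes, 8 lie on GRCm38 chromosome 17 between positions 34092340 (the start of H2-Oa) and 34316674 (the end of H2-Eb1), and Ciita (ENSMUSG00000022504) lies on chromosome 16 at 10480059 to 10528418. From the start of the stretch, the order is H2-Oa (ENSMUSG00000024334, 34092340 to 34095234), H2-DMa (ENSMUSG00000037649, 34119541 to 34139101), H2-DMb2 (ENSMUSG00000037548, 34143307 to 34151555) and H2-DMb1 (ENSMUSG00000079547, 34153072 to 34160230). Then follow H2-Ob (ENSMUSG00000041538, 34238903 to 34254414), H2-Ab1 (ENSMUSG00000073421, 34257689 to 34269419), H2-Aa (ENSMUSG00000036594, 34282744 to 34287823) and H2-Eb1 (ENSMUSG00000060586, 34305867 to 34316674). H2-Aa is on the minus strand and the other members are on the plus strand. In the stretch from H2-Oa to the end of H2-Ea, 15 annotated genes were tested, 8 of them members. Of the other 7, H2-Eb2 and Tap2, a subunit gene of the peptide transporter for class I, were higher, Tap2 1.19-fold (edgeR adjusted p = 0.00424). Tap1, the other subunit gene, was called lower with a log2 fold change of -0.11 (edgeR adjusted p = 0.04995), a call kept in 3 of 14 alternatives. The immunoproteasome genes Psmb8 and Psmb9, the bromodomain gene Brd2 and the noncoding Gm15821 did not pass. Genes that passed and genes that did not were thus interleaved along the chromosome.

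**Figure D3:**
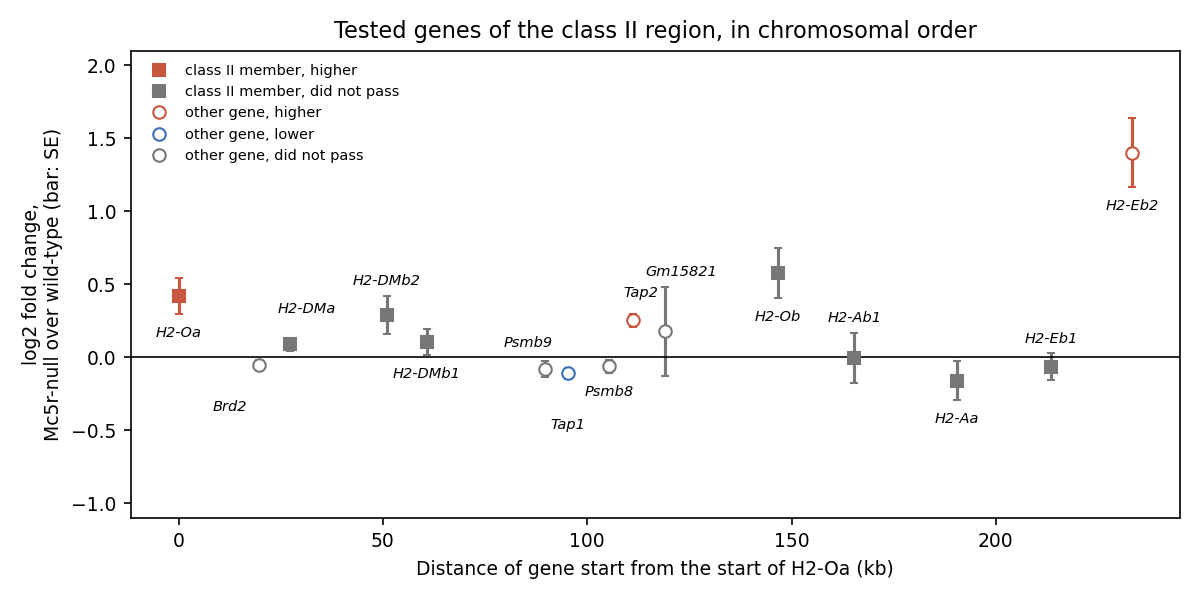
Log2 fold change (bars are SE) of the 15 tested genes of the class II region on chromosome 17, by distance of each gene's start from that of H2-Oa in kb. Squares are class II members and open circles are other genes, coloured by call. H2-Oa at 0 kb and H2-Eb2 near the far end are higher, with genes that did not pass between them.

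Class II promoters are known for an X box, bound by the RFX complex, and a Y box, bound by NF-Y, at a fixed distance. The proximal promoters are shown here so that genes that were called and genes that did not pass can be set side by side. RefSeq windows of 300 bases (250 before to 50 after the start, GRCm38.p6) were used for 7 of the 10 genes, and for H2-Eb2, matched by symbol. Windows for H2-Ab1, Ciita and Cd74 were not used here, so the promoter counts do not cover Cd74, the member with the clearest difference. Both strands were searched for the Y box core GATTGG and for the RFX half-site GNAAC starting 28 to 33 bases before it. The core stood in 16.1% of all 32851 windows in the table, the half-site at any place in 84.8%, and the pair in 0.338%. The pair was found in 5 of the 7 genes and in H2-Eb2. The motifs were chosen after sequences were seen, so this count beside the share of all windows is a description and no test. Capitals mark the half-site and the core, and each sequence is written 5′ to 3′ along its gene's strand.
H2-Eb1: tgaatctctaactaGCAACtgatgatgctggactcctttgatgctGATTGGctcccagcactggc
H2-Aa: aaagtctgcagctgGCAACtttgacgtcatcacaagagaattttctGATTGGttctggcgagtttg
H2-DMb1: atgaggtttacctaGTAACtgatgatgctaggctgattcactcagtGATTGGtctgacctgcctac
H2-Oa: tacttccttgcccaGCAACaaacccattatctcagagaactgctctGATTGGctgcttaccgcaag
H2-Ob: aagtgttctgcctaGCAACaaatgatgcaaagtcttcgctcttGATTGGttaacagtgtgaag
H2-Eb2: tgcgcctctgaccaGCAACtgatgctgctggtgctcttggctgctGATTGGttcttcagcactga
H2-DMb2: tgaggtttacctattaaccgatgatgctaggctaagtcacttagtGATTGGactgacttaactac

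These stretches lie at chr17:34305762-34305826 (H2-Eb1), chr17:34287853-34287918 on the minus strand (H2-Aa), chr17:34153083-34153148 (H2-DMb1), chr17:34092289-34092354 (H2-Oa), chr17:34238804-34238866 (H2-Ob), chr17:34325529-34325593 (H2-Eb2) and chr17:34145113-34145177 (H2-DMb2). The half-site started 32 bases before the core in H2-Aa, H2-DMb1 and H2-Oa, 31 in H2-Eb1 and H2-Eb2, and 29 in H2-Ob. H2-DMb2 held the core without the half-site in that range. The 2 H2-DMa windows held no such pair on either strand. Read on the gene's strand only, unlike the share over all windows, the core stood in 1 of them, 199 bases before the start. H2-Eb1 and H2-Eb2 have the same 5 half-site letters, the same core and the same spacing, with other letters around them, and they are neighbours among the tested genes. H2-Eb2 rose 2.64-fold and H2-Eb1 did not pass. A match of these letters is a description of the window and shows no binding.

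The genes around class II were read from lists of 66 further genes, H2-Eb2 and H2-Ea included, of which 62 were tested, 11 were higher and 17 lower (median log2 fold change -0.04). Of all genes tested, 16.8% were called higher and 16.1% lower, so the higher count lay near the background. Of 12 genes of the promoter complex and its chromatin partners, 2 were higher and 0 lower. Rfx5, a subunit of the X box factor, rose from 43.4 ± 1.88 to 51.6 ± 5.22 CPM (edgeR adjusted p = 0.0218), a call lost when replicate 1 or 2 of the wild-type group, or 2 or 3 of the Mc5r-null group, was left out (highest adjusted p 0.0732). Crebbp, a histone acetyltransferase gene, rose from 100.1 ± 2.06 to 114.0 ± 1.05 CPM. The other RFX subunit genes Rfxap and Rfxank had adjusted p values of 0.371 and 0.651. Among 9 genes of interferon-gamma signalling, the pathway that induces Ciita in many cells, 2 were higher and 2 lower. The receptor chain gene Ifngr2 fell 1.39-fold from 27.7 ± 1.01 to 19.5 ± 0.675 CPM, while the kinase gene Jak1 rose 1.14-fold and the factor gene Irf2 1.21-fold (SD, n = 3 each).

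Other regulators of Ciita moved in both directions, with 3 of 8 tested genes higher and 3 lower. Prdm1, which encodes the plasma cell repressor of Ciita, rose 2.17-fold from 5.49 ± 0.697 to 11.6 ± 1.47 CPM. Irf4, a factor of plasma cells and activated B cells, rose 2.37-fold from 18.1 ± 1.20 to 41.9 ± 1.25 CPM, and Foxo1 rose 1.67-fold. The B cell factor gene Pax5 fell 2.003-fold from 15.3 ± 0.729 to 7.43 ± 1.03 CPM, Spib, a factor of B cells and plasmacytoid dendritic cells, 2.14-fold, and the myeloid factor gene Spi1, which encodes PU.1, 1.13-fold. Each of these 6 calls was kept in the 14 alternatives. Irf4, Pax5 and Prdm1 also stand in the lists of B cell or plasma cell markers.

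Of 13 genes of endosomal processing, 7 were lower and 1 was higher (median log2 fold change -0.21), against 16.1% lower and 16.8% higher over all genes tested. The cathepsin genes Ctsh (1.62-fold, 37.2 ± 0.129 to 22.4 ± 2.06 CPM), Ctsz (1.32-fold) and Ctsb (1.15-fold) fell. Ifi30, which encodes the lysosomal thiol reductase GILT, fell 1.56-fold, the lysosomal membrane genes Lamp1 1.31-fold and Lamp2 1.18-fold, and the cathepsin inhibitor gene Cst3 1.16-fold. Lgmn, the legumain gene, rose 1.61-fold from 14.6 ± 0.543 to 22.9 ± 1.94 CPM. Ctss, whose product cuts the invariant chain in B cells and dendritic cells, did not pass, at 61.0 ± 2.54 CPM against 64.0 ± 1.08 CPM without Mc5r (edgeR adjusted p = 0.106). Of the genes called lower, the cathepsins and the lysosomal membrane proteins are known to work in lysosomes generally, beyond class II processing. The cause of the lower levels was not tested.

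Of 9 genes of class II trafficking and turnover, 1 was higher and 3 lower. Marchf1, the ubiquitin ligase gene that sends class II for degradation, fell 1.88-fold from 1.83 ± 0.429 to 0.949 ± 0.247 CPM (edgeR adjusted p = 0.0404). That call was lost in 6 of 14 alternatives, which were DESeq2, limma-voom and the omission of wild-type library 1 or 2 or of Mc5r-null library 1 or 3 (highest adjusted p 0.151). The tetraspanin gene Cd63 fell 1.31-fold and the lysosome positioning gene Arl8b 1.10-fold, while the tetraspanin gene Cd81 rose 1.17-fold. Of 10 tested genes of costimulation and class II partners, 1 was higher and 2 lower. The cytokine gene Mif, whose product binds CD74, fell 1.13-fold from 210.9 ± 3.46 to 181.6 ± 1.18 CPM, and Cxcr4, a signalling partner of CD74, 1.25-fold. Cd44, the other partner, did not pass, at 281.2 ± 32.6 CPM against 237.3 ± 4.05 CPM without Mc5r (edgeR adjusted p = 0.138). Lag3, which encodes a class II receptor, rose from 26.3 ± 1.27 to 38.5 ± 0.842 CPM. Costimulatory genes were scarce, with Cd86 at 3.15 ± 0.0696 and 2.94 ± 0.247 CPM and Cd80 and Cd40 below 1 CPM in each library and not tested.

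**Figure D4:**
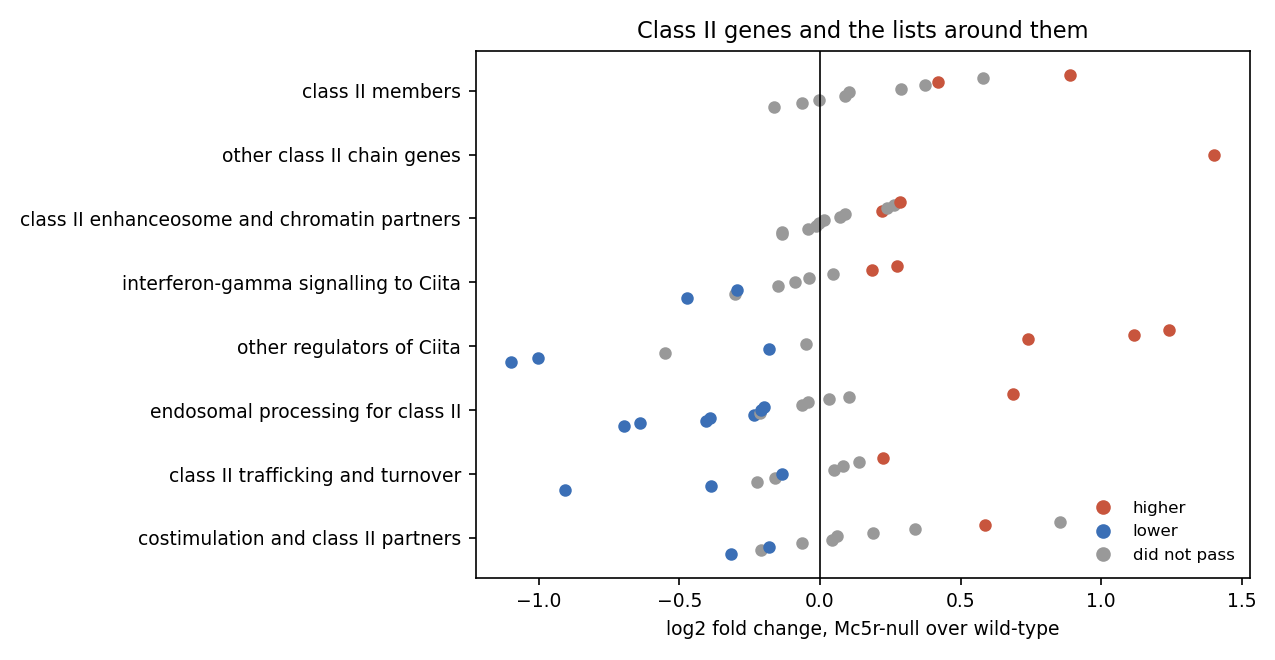
Log2 fold change of Mc5r-null over wild-type for each tested gene of the class II members and of the 7 lists around them, with 1 point per gene, red for higher, blue for lower and grey for genes that did not pass. Endosomal processing genes lie mostly below 0, while the regulators of Ciita spread to both sides.

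Markers of other cell types that a sort could hold were called in both directions, read against 16.8% higher and 16.1% lower over all genes tested. Plasma cell markers were 8 higher and 0 lower of 10 tested, and their summed level was 2185 to 2221 CPM in wild-type and 3343 to 6348 CPM in Mc5r-null libraries, with Jchain at 2619 CPM in Mc5r-null replicate 3 and 5603 and 5495 CPM in the others. B cell markers were 5 higher and 2 lower of 13 tested, at 309.4 to 311.5 CPM in wild-type and 349.1 to 361.4 CPM in Mc5r-null. Among them Cd79a (35.5 ± 1.04 to 68.2 ± 1.88 CPM) and Ms4a1, which encodes CD20 (1.45 ± 0.167 to 4.87 ± 0.216 CPM), rose, and Pax5 fell. Dendritic cell markers were 0 higher and 6 lower of 10 tested, at 150.6 to 161.2 CPM in wild-type and 121.4 to 130.9 CPM in Mc5r-null, with Itgax (14.5 ± 0.792 to 10.1 ± 1.08 CPM) and Siglech among the lower ones. Monocyte and macrophage markers were 1 higher and 8 lower of 12 tested, at 596.7 to 682.4 CPM in wild-type and 410.2 to 456.5 CPM in Mc5r-null, where the higher gene was C1qa (0.223 ± 0.0387 to 1.04 ± 0.203 CPM).

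None of these 4 lists held a marker at 0 in every library. The part of such cells in the difference of Cd74, H2-Oa or H2-Ob was not tested, and in bulk RNA fewer cells of a type and less RNA per cell cannot be told apart. LSK markers were 8 higher and 0 lower of 10 tested, endothelial markers 6 higher and 0 lower of 8, and T, NK and innate lymphoid markers 2 higher and 1 lower of 6, against the same shares of 16.8% and 16.1%. Immunoglobulin genes held 2.14% to 2.15% of counts in wild-type and 6.86% to 6.96% in Mc5r-null libraries. With those genes left out of the totals and the fit, the log2 fold change of Cd74 was 0.90.

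The genes whose log2 CPM over the 6 libraries lay closest to the mean standardised profile of Cd74, H2-Aa, H2-Ab1 and H2-Eb1 were Poc1b (Pearson correlation 0.98), Naa60 (0.97), Sf3b1 (0.97), 5031425E22Rik (0.97) and Amd1 (0.97) among 13660 genes. For deviations from the genotype means they were Ptbp1, Gm14277, Macrod2, Tigd2 and Prtn3, with correlations from 0.993 to 0.999. Each list holds the highest correlations among 13660 genes over only 6 libraries that share their totals. Choosing the highest of so many makes high values likely, and a link of these genes to class II was not tested. No gene stood in both lists.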

How the data were processed

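Poly-A RNA of 6 LSK libraries was sequenced as stranded paired-end libraries, per the labels' protocols. The authors deposited whole-number counts per gene without normalization and, beside them, FPKM values, which scale counts by gene length and library total. HISAT2, StringTie, edgeR, CASAVA 1.8 and the build GRCm38 appear in the submitters' processing notes, with no role given. The counting program, annotation release and strand setting are not given in the sources used here. Positions of the 10 genes equalled those of GENCODE mouse release 21, which supplied strands and transcripts.

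Counts were tested with edgeR 4.0.16 under R 4.3.3. The filter was filterByExpr (minimum count 10, minimum total 15) and the scaling TMM, and the robust quasi-likelihood F-test compared genotypes, with Benjamini-Hochberg adjustment over 15257 genes. SE is the size of the fitted log2 fold change divided by the square root of F. The fit was first run on simulated counts in which few genes changed, as a check of the code and not of the calls made here.

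The members and lists were chosen with earlier results of these data known. Named were all members, called genes of each pathway list with genes needed for a role, Mc5r, defining markers (some listed genes are not reported here), and the 5 genes most like the class II chains by each of 2 correlations (mean of at least 1 CPM, log2 of CPM plus 0.5, no immunoglobulin or sex-linked genes). The other genes of the region and the promoter motifs were chosen after their values or sequences were seen.

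The alternatives tried were upper-quartile and RLE scaling, DESeq2 1.42.0, limma-voom (limma 3.58.1), a replicate block, omission of immunoglobulin genes, no filter, a floor of 1 CPM in 3 libraries, and omission of each library in turn, 14 in all. The scale by coding transcript length was added after seeing the data. Same-numbered libraries did not deviate together over the genes tested (correlations 0.00251, -0.0408 and -0.0240). The data thus gave no sign that the numbers pair libraries, though a pairing that touches few genes could be missed.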

Additional observations from a re-analysis of the deposited data

How the results depend on the processing

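Across the 14 alternatives, Cd74 was higher in each (adjusted p at most 0.0321, in edgeR with the replicate block) and no member was called lower. The count of members called higher was 2 or 3 under the 8 alternatives that keep all libraries, and 1 to 3 leaving out 1 library, and Cd74 was called alone when the third wild-type, or the second or the third Mc5r-null library, was left out. With the replicate block, a number the data give no sign of pairing, Cd74 had a log2 fold change of 0.89 (adjusted p = 0.0321), and the members called were Cd74 and H2-Ob. The fitted difference of H2-Ab1 changed sign without immunoglobulin genes (0.0031) and moved between -0.18 and 0.13 leaving out 1 library, and it passed in none. Pathway counts stayed between 10 and 12 higher and 16 and 19 lower. Of all genes, 1685 were higher with DESeq2 against 2567 with edgeR. Scaling moved the median of all genes by less than 0.1. The cause of these differences was not tested. Ciita, H2-DMb2 and H2-Oa had the fewest counts of the members, at 32 to 203 a library.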
